A study of Homo sapiens with 18 samples.

Results

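The question addressed here was whether 2-deoxyglucose (2DG) and phenformin changed RNA levels of T98G cells additively when they were given together. T98G is an established human glioblastoma line. The comparison used 12 of the 18 libraries of the series, 3 biological replicates in each of 4 groups: 2DG at 10 mM plus phenformin at 100 µM, 2DG at 10 mM alone, phenformin at 100 µM alone, and the solvent DMSO. Cells were harvested after 2 h. The 10 mM dose is that of the sample labels and of the methods, while the results text of the paper gives a higher one. The interaction was computed for every gene that could be tested, and 12108 of 55128 genes reached the level for testing, set at 0.5 FPKM or more in 3 or more of the 18 libraries (FPKM is a fragment count scaled by exon length and by the depth of the library). The other 6 libraries, of cells given the resveratrol trimer gnetin H (GH) at 8 µM alone or with phenformin, entered the same model and served otherwise only for the last comparison below.

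2DG is a glucose analogue that is taken up and phosphorylated but cannot pass through glycolysis. It also takes the place of mannose in the sugar chains built for N-linked glycoproteins, so that proteins misfold in the endoplasmic reticulum (ER) and the unfolded protein response is switched on. Phenformin is a biguanide that inhibits complex I of the mitochondrial respiratory chain. Cells given both lose a large part of both routes to ATP.

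Effects were compared on the log2(FPKM + 0.1) scale, where an additive result means that the 2 agents multiply the level of a gene independently. The interaction is the effect of 2DG in the presence of phenformin (2DG plus phenformin against phenformin) minus the effect of 2DG in its absence (2DG against DMSO). It equals the effect of phenformin with 2DG minus that without 2DG, and neither pair of effects shares a library. A gene lay above or below the additive sum where the interaction passed limma's test at a Benjamini-Hochberg adjusted p under 0.05 over all genes tested. The 12 libraries held 18425361 to 21616663 mapped fragments. Of 7 genes usual in cultured glioblastoma cells, 6 were tested, with summed levels of 1690 FPKM or more in every library, while NES, the gene of the intermediate filament nestin, was nearly absent with a group mean of 0.0301 FPKM or less. Of 16 markers of blood, epithelial, endothelial, neural and liver cells, 15 stayed under 0.5 FPKM in each of the 12 libraries, and the exception, the neuronal gene SNAP25, reached 0.991 FPKM.

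For most genes no departure from the additive sum passed the test, which does not show that they followed it. 167 genes (1.38% of those tested) lay above the additive sum and 435 (3.59%) lay below it. At an unadjusted p under 0.05 (limma) the numbers were 676 and 1320. The median interaction of all tested genes was 0.00 on the log2 scale. At the thresholds the study used for its own comparisons (fold of at least 2, Bonferroni p of at most 0.05, mean FPKM of at least 1 in 1 of the 4 groups) 14 genes lay above (0.116%) and 15 below (0.124%). Among the 14 were DUSP1, ADM, ZFP36L1, BCYRN1, CLK1, ZFP36, TXNIP, SPRY2, KLF6, PIM1, BHLHE40, ARRDC3 and KCNJ2. The 15 were CHAC1, ZNF547, HERPUD1, SESN2, PPARGC1A, MIR22HG, ZNF607, ZNF566, LYSMD3, DDIT3, EIF5, MT-ND6, HSPA5, IL6R and HEXIM1. CHAC1, ZNF547, HERPUD1 and SESN2 had the 4 most negative values among the 15, and they had been picked out with such values known. The largest positive value of all tested genes, 4.77, was that of AC008764.4, a gene with a mean under 1 FPKM in each group and listed at 0 in phenformin, so that the value depends on the pseudocount (adjusted p = 0.034).

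The counts at any fold depend on how libraries of differing base composition are treated. DMSO replicate C stood apart from its group in its balance of genes rich and poor in GC (a slope of 0.047 log2 units per 10 points of GC content, against -0.301 and -0.229 in replicates A and B), as did replicate A of GH plus phenformin (-0.191 against 0.231 and 0.228). Without both libraries 256 genes lay above and 646 below. After the trend of each library on GC content and length was removed the numbers were 639 above and 906 below, and these held 139 and 415 of the original calls. Leaving out replicate A of 2DG plus phenformin gave 102 genes above, and leaving out replicate A of 2DG gave 283 below. At the study's thresholds 9 genes lay above without replicate B of DMSO, replicate B of phenformin or replicate A of 2DG plus phenformin. At these thresholds 12 genes lay above and 15 below without the 2 libraries, and 12 above and 16 below with the correction. Smaller differences in slope were present in replicate B of 2DG plus phenformin (0.081 against 0.205 and 0.311) and replicate A of 2DG (0.131 against 0.289 and 0.274).

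Phenformin alone moved few genes, 11881 of the 12108 by less than 1.5-fold. Across all tested genes, which are not independent replicates, the effects of phenformin with and without 2DG correlated at r = 0.125, while the effects of 2DG with and without phenformin correlated at r = 0.840. A low r is to be read with the small size of most phenformin effects, whose SD over genes was 0.212 without 2DG and 0.257 with it. The GC slopes also differed between groups. They were 0.081 to 0.311 in the libraries with 2DG, -0.357 to -0.209 in phenformin alone and -0.301 to 0.047 in DMSO. Both 2DG effects thus ran with GC content in the same direction. The part of this trend in r = 0.840 and in the fold counts over all genes was not tested. Without 2DG, phenformin moved 432 of the 435 genes below the additive sum by less than 1.5-fold, a share close to that over all genes, and with 2DG it lowered 118 of them by at least 1.5-fold, beside 307 of all genes. Of the 167 genes above, 155 moved by less than 1.5-fold in phenformin alone, a smaller share than over all genes. Of the same 167, 63 were raised at least 1.5-fold when phenformin was added to 2DG, beside 175 of all genes. Seen from the side of 2DG, 23 of the 435 genes were raised at least 1.5-fold by 2DG alone and moved by less than that with phenformin, beside 203 of all 12108 genes. Another 168 of the 435 were lowered at least 1.5-fold only when phenformin was present, beside 606 of all genes. Of the 167, 42 were raised at least 1.5-fold only when phenformin was present, beside 577 of all genes. These fold classes describe the genes that passed the test and carry no test of their own.

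**Figure D1:**
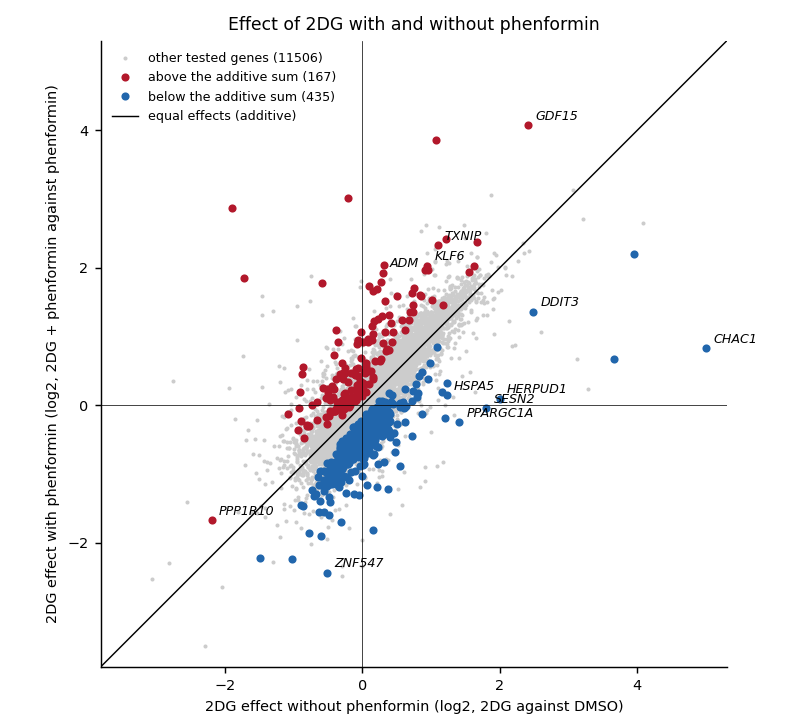
Effect of 2DG on each of the 12108 tested genes with phenformin (y axis, log2, 2DG plus phenformin against phenformin) and without it (x axis, log2, 2DG against DMSO), 1 point per gene, with the 167 genes above the additive sum in red, the 435 below it in blue and the diagonal marking equal effects. HERPUD1, SESN2, HSPA5 and PPARGC1A lie to the right and near 0 on the y axis, CHAC1 lies farthest right at 0.83 on the y axis, and ADM, KLF6, TXNIP and GDF15 lie above the diagonal.

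**Figure D2:**
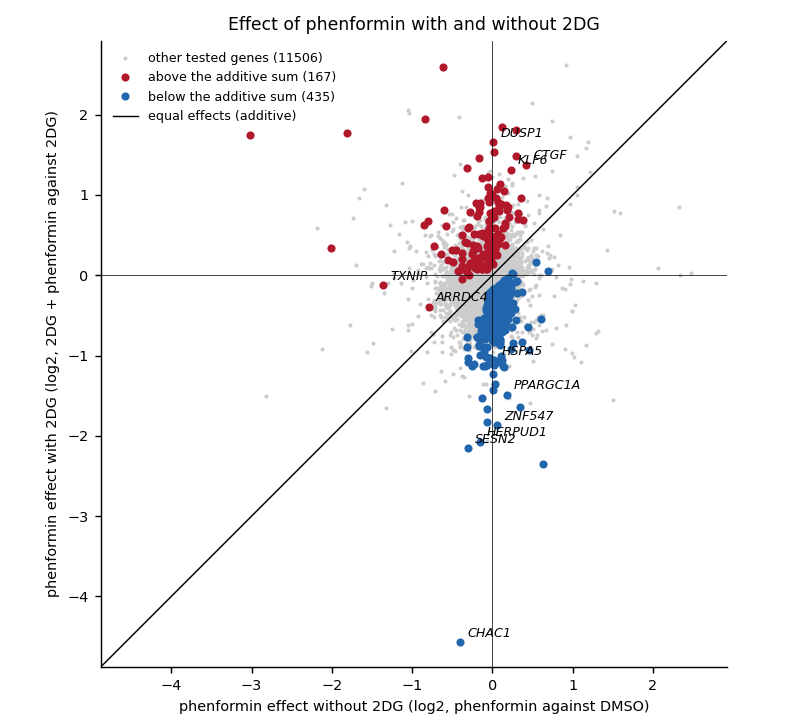
Effect of phenformin on the same genes with 2DG (y axis, log2, 2DG plus phenformin against 2DG) and without it (x axis, log2, phenformin against DMSO), in the same colours. The called genes spread along the y axis and stay near 0 on the x axis, except for a few such as TXNIP and ARRDC4, which phenformin alone lowered.

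HERPUD1, HSPA5, XBP1 and DNAJB9, genes of the unfolded protein response that 2DG raised, were not raised, or were raised far less, when phenformin was present. HERPUD1 (ENSG00000051108, GRCh38 chr16:56932048-56944863, plus strand) encodes an ER membrane protein that recruits the machinery of ER-associated degradation. Its FPKM was 9.95, 9.32 and 9.51 in 2DG plus phenformin and 42.1, 41.1 and 38.8 in 2DG, against 9.41, 9.19 and 8.42 in phenformin and 10.1, 10.5 and 9.69 in DMSO. The libraries of 2DG plus phenformin overlapped those of phenformin alone and stood far from those of 2DG alone, and an additive result would have been 36.3 FPKM. 2DG changed HERPUD1 by 0.09 on the log2 scale with phenformin (adjusted p = 0.11) and raised it by 2.00 without (adjusted p = 1.4e-12), an interaction of -1.91 (standard error 0.0692, adjusted p = 6e-10, limma). AC012181.2 and AC012181.3, annotated within HERPUD1 on the same strand, can share its fragments, and both also lay below the sum.

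HSPA5, the gene of BiP, the main ER chaperone and the sensor that holds the stress receptors inactive, was likewise far higher in 2DG alone than in the other 3 groups. It stood at 200.2, 200.3 and 187.5 FPKM in 2DG plus phenformin and at 422, 398 and 402 in 2DG, against 182, 178 and 171 in phenformin and 178, 178 and 166 in DMSO. Each library of 2DG plus phenformin lay above each of phenformin alone, by a small margin, and far below those of 2DG. The 2DG effect was 0.15 with phenformin (adjusted p = 0.02) and 1.23 without it (adjusted p = 4.7e-10), and the interaction was -1.08 (standard error 0.0717, adjusted p = 4e-07). XBP1, the transcription factor made active by the splicing of its RNA in ER stress, averaged 34.9 ± 0.893 FPKM in 2DG plus phenformin and 51.9 ± 1.23 in 2DG, against 33.6 ± 0.463 in phenformin and 31.5 ± 0.555 in DMSO (SD, n = 3 each), an interaction of -0.66 (standard error 0.0508, adjusted p = 1.8e-06). The level of DNAJB9, which assists BiP, averaged 8.15 ± 0.262 FPKM in 2DG plus phenformin and 16.8 ± 1.05 in 2DG, against 8.95 ± 0.452 in phenformin and 9.29 ± 1.64 in DMSO (SD, n = 3 each), an interaction of -1.0 (standard error 0.152, adjusted p = 0.0012). In all of these genes the level under both agents was close to that under phenformin alone.

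Of the 31 tested ER chaperones and factors of ER-associated degradation, 5 lay below the additive sum (16.1%, beside 3.59% of all genes) and 0 above it by limma (10 and 1 at an unadjusted p under 0.05, and 5 and 0 with voom weights). The remaining 1 was DERL1, a channel protein of the degradation pathway, at 12.7 FPKM in 2DG plus phenformin and 15.3 in 2DG, against 18.6 in phenformin and 18.4 in DMSO, whose interaction of -0.29 only just passed (adjusted p = 0.049). The median interaction of the list was -0.19, beside 0.00 over all genes. Few members carried the calls, and the stress receptors ATF6 and ERN1 had values of 0.02 and 0.13 that did not pass (adjusted p = 0.94 and 0.78). Of the list, 8 members were raised at least 1.5-fold by 2DG without phenformin and 3 with it, and in each of the 8 the 2DG effect was smaller with phenformin. Over all genes 1714 were raised that far without phenformin and 2093 with it, and in 586 of the 1714 the effect was smaller with phenformin. SDF2L1, CRELD2, HYOU1 and SYVN1, the other members among the 8, had interactions of -0.14, -0.35, -0.19 and -0.26, none past the test. The count below became 12 after the GC and length correction and 9 without the 2 libraries that stood apart.

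The start regions of 3 of these genes carry the letters of the ER stress response elements to which ATF6 and XBP1 are known to bind, and the fourth gene shown, CHAC1, carries a match to a target site of ATF4 and DDIT3. The windows run from 250 bases before to 50 after the annotated start and come from RefSeq on GRCh38.p14, at chr16:56931892-56932191 (plus strand), chr9:125241294-125241593 (minus strand), chr22:28800520-28800819 (minus strand) and chr15:40953221-40953520 (plus strand), written along the gene. Capitals mark matches to the ER stress element ERSE (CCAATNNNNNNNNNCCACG), ERSE-II (ATTGGNCCACG), the core of the CARE element of ATF4 (TGATGNAA) and the AP-1 site (TGANTCA), searched on both strands together with the cyclic AMP element CRE (TGACGTCA).
HERPUD1: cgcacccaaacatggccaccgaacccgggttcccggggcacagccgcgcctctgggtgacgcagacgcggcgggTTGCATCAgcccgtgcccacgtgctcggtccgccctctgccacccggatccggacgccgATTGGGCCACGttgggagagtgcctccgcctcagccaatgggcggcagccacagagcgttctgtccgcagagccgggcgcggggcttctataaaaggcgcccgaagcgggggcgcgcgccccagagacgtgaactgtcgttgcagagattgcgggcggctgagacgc
HSPA5: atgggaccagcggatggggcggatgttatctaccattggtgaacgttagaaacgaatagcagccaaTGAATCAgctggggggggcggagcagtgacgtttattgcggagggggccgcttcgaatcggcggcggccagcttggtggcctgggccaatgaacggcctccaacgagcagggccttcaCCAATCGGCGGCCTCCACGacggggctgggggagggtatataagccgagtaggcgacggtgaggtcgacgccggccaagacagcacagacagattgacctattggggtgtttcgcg
XBP1: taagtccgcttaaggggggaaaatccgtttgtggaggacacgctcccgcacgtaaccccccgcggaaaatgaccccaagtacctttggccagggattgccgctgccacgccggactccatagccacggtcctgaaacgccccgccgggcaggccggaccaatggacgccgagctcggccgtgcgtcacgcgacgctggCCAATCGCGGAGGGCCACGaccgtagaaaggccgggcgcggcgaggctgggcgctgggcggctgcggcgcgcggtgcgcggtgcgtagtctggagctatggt
CHAC1: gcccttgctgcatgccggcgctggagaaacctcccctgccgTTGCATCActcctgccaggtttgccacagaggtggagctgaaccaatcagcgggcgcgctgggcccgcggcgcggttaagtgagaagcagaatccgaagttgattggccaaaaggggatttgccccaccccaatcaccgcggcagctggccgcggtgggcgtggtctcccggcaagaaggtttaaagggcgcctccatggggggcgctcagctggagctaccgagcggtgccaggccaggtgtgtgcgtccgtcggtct
In HERPUD1 the CARE match, on the minus strand, spans positions -176 to -169 from the start and the ERSE-II match spans -117 to -107. In HSPA5 the capitals are an AP-1 match at -184 to -178 and an ERSE match at -66 to -48, and in XBP1 an ERSE match at -52 to -34. The CARE match of CHAC1 is on the minus strand at -209 to -202. ERSE was found in 22 of 27305 windows (0.0806%) and ERSE-II in 15 (0.0549%), the CARE core in 3.67%, the AP-1 site in 7.76% and CRE in 1.98%. Of the 342 genes below the additive sum that had a window, 3 held ERSE (0.877%), 1 ERSE-II (0.292%) and 7 the CARE core (2.05%). The AP-1 site was in 15 of them (4.39%) and CRE in 10 (2.92%). Of the 110 above the sum, 0 held ERSE or ERSE-II, 2 the CARE core (1.82%), 8 the AP-1 site (7.27%) and 4 CRE (3.64%). Among the 8829 tested genes with a window the shares were 0.159% for ERSE, 0.113% for ERSE-II and 1.51% for the CARE core. For the AP-1 site and CRE they were 4.33% and 3.4%. DNAJB9, the fourth of the ER genes above, had none of these letters in its window, nor did SESN2 and TXNIP, while DDIT3 had an AP-1 match. Of the 61 genes named by the rules given below, 51 had a window and 10 of these a match. The share with any match was not computed over all tested genes.

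**Figure D3:**
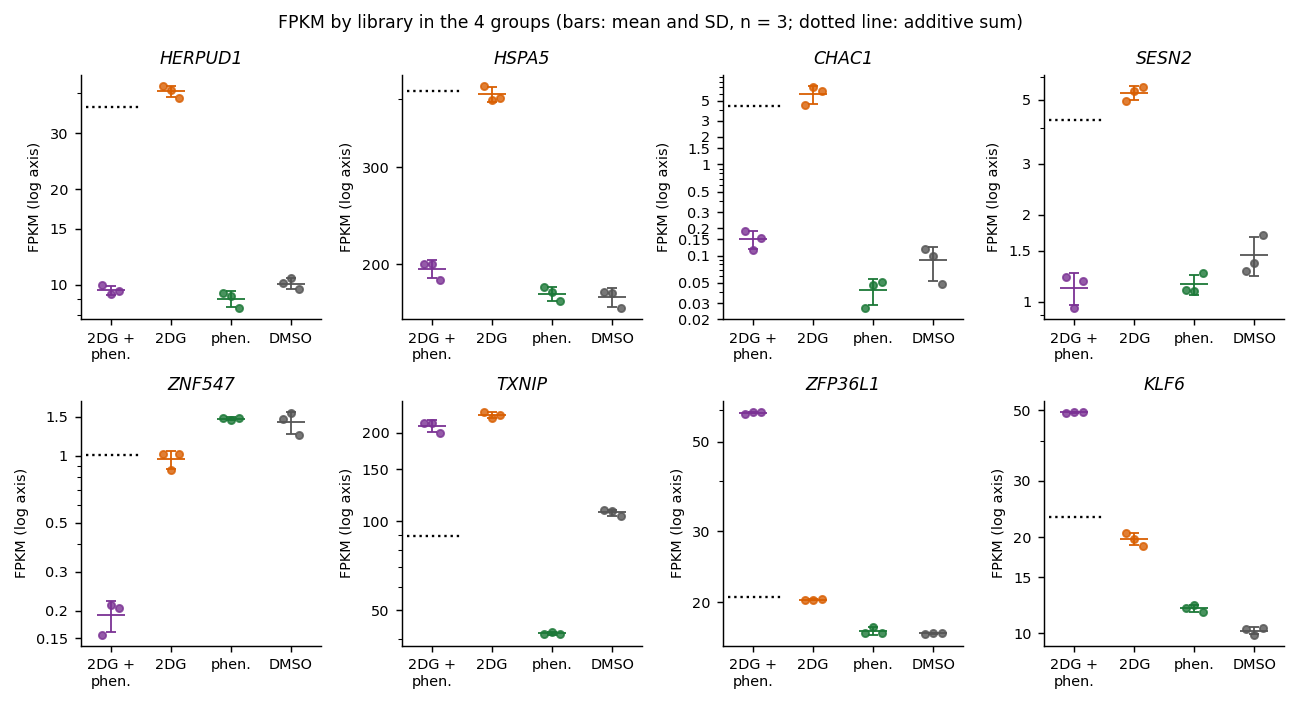
FPKM of 8 genes in each library (points, log axis) of 2DG plus phenformin, 2DG, phenformin and DMSO, with the mean and SD of 3 replicates as bars and the level that an additive result would have given as a dotted line. HERPUD1, HSPA5 and SESN2 lie below the line near the level of phenformin, CHAC1 lies below the line and above phenformin, ZNF547 lies below every other group, and TXNIP, ZFP36L1 and KLF6 lie above the line.

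Targets of the integrated stress response, in which phosphorylation of eIF2 alpha lets ATF4 be translated, included CHAC1, the most negative interaction of all genes tested. CHAC1, a glutathione-degrading enzyme induced by ATF4 and DDIT3 (ENSG00000128965, GRCh38 chr15:40952962-40956519, plus strand), was at 0.185, 0.115 and 0.157 FPKM in 2DG plus phenformin and at 4.50, 7.07 and 6.39 in 2DG, against 0.0264, 0.0473 and 0.0507 in phenformin and 0.118, 0.0995 and 0.0484 in DMSO. All libraries but those of 2DG alone were under 0.2 FPKM. The interaction was -4.17 (standard error 0.367, adjusted p = 8.9e-06), a value that depends on the pseudocount of 0.1 because the low levels are close to it (-2.52 with a pseudocount of 1). SESN2, a stress-induced inhibitor of mTORC1 (ENSG00000130766, GRCh38 chr1:28259527-28282491, plus strand), stood at 1.22, 0.948 and 1.18 FPKM in 2DG plus phenformin and at 4.93, 5.37 and 5.53 in 2DG, against 1.10, 1.09 and 1.25 in phenformin and 1.28, 1.36 and 1.70 in DMSO. The groups with phenformin overlapped each other, and 2DG changed SESN2 by -0.04 with phenformin (adjusted p = 0.83) and by 1.80 without it (adjusted p = 3.9e-06), an interaction of -1.85 (standard error 0.241, adjusted p = 0.00033).

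DDIT3, the transcription factor CHOP, kept a part of its rise. Its FPKM was 48.1, 43.0 and 46.6 in 2DG plus phenformin and 97.6, 102 and 97.9 in 2DG, against 18.4, 16.9 and 18.3 in phenformin and 16.3, 16.8 and 19.9 in DMSO. 2DG raised DDIT3 with phenformin by 1.36 (adjusted p = 4.6e-09) and without it by 2.49 (adjusted p = 8.2e-12), an interaction of -1.13 (standard error 0.102, adjusted p = 1e-05). ATF4 itself averaged 136 FPKM in 2DG plus phenformin and 177 in 2DG, against 89.1 in phenformin and 89.9 in DMSO, and lay slightly below the sum with an interaction of -0.37 (standard error 0.0641, adjusted p = 0.0032). CEBPG, a dimerisation partner of ATF4, averaged 8.10 FPKM in 2DG plus phenformin and 12.5 in 2DG, against 11 in phenformin and 10.6 in DMSO, an interaction of -0.67 (adjusted p = 0.00044). The mean under both agents was the lowest of the 4. TRIB3, a pseudokinase that DDIT3 and ATF4 induce, averaged 6.07 FPKM in 2DG plus phenformin and 9.32 in 2DG, against 5.59 in phenformin and 5.34 in DMSO (interaction -0.68, standard error 0.128, adjusted p = 0.006). ASNS, the asparagine synthetase, averaged 5.65 FPKM in 2DG plus phenformin and 8.09 in 2DG, against 6.28 in phenformin and 6.36 in DMSO (interaction -0.49, standard error 0.0776, adjusted p = 0.0015).

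GDF15, a secreted stress cytokine, went the other way. It was at 7.51, 6 and 7.38 FPKM in 2DG plus phenformin and at 2.33, 2.96 and 2.83 in 2DG, against 0.286, 0.373 and 0.300 in phenformin and 0.303, 0.393 and 0.620 in DMSO. The libraries of 2DG plus phenformin lay above all others, and the interaction was 1.65 (standard error 0.334, adjusted p = 0.0089, or 0.061 with voom weights). Of the 39 tested genes of the integrated stress response, 7 lay below the additive sum (CHAC1, DDIT3, SESN2, CEBPG, ASNS, ATF4 and TRIB3) and 1, GDF15, above it, with a list median of -0.11. These are 17.9% and 2.56% of the list, beside 3.59% and 1.38% of all genes. Each of the 12 counts with 1 library left out was also 7 below and 1 above, and 15 lay below after the GC and length correction and 12 without the 2 libraries that stood apart. DDIT4, an inhibitor of mTORC1, and PPP1R15A, which directs the dephosphorylation of eIF2 alpha, had interactions of -0.49 and 0.46 that did not pass (adjusted p = 0.092 and 0.18). The 13 tested genes of mTORC1 inhibition and AMPK, which share SESN2 with this list, held 1 more gene below the sum, the AMPK subunit PRKAG2 (-0.42, adjusted p = 0.012, lost with quantile normalization), and 0 above it (6 below and 1 above at an unadjusted p under 0.05, 2 and 0 with voom weights). With SESN2 counted, 15.4% of the 13 lay below.

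PPARGC1A is the gene of the coactivator PGC-1 alpha that drives mitochondrial biogenesis. 2DG raised it without phenformin (log2 effect 1.41, adjusted p = 7.4e-09, limma) and lowered it slightly with phenformin (-0.25, adjusted p = 0.0099). Its FPKM was 1.63, 1.68 and 1.56 in 2DG plus phenformin and 4.95, 4.61 and 4.66 in 2DG, against 2.03, 1.90 and 1.93 in phenformin and 1.72, 1.78 and 1.65 in DMSO. The 3 groups other than 2DG alone were close together, and the interaction was -1.66 (standard error 0.106, adjusted p = 3.1e-07). MIR22HG, the host transcript of miR-22, fell under both agents below every other group, at 2.27, 1.92 and 2.32 FPKM in 2DG plus phenformin and 7.67, 6.99 and 6.56 in 2DG, against 4.85, 4.84 and 5.86 in phenformin and 5.29, 5.47 and 5.50 in DMSO (interaction -1.59, standard error 0.118, adjusted p = 1.5e-06). LYSMD3, a membrane protein of the Golgi, averaged 5.77 ± 0.193 FPKM in 2DG plus phenformin and 12.1 ± 0.418 in 2DG, against 14.3 ± 0.774 in phenformin and 13.1 ± 1.16 in DMSO (SD, n = 3 each), an interaction of -1.17 (adjusted p = 0.00012).

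Of the 435 genes below the sum, 58 were zinc finger genes with a ZNF symbol. ZNF547 (ENSG00000152433, GRCh38 chr19:57363477-57379565, plus strand) was at 0.156, 0.212 and 0.207 FPKM in 2DG plus phenformin and at 1.02, 0.861 and 1.02 in 2DG, against 1.49, 1.45 and 1.49 in phenformin and 1.46, 1.56 and 1.25 in DMSO. 2DG lowered it with phenformin (log2 effect -2.44, adjusted p = 5.3e-08) and less without it (log2 effect -0.51, adjusted p = 0.018), an interaction of -1.93 (standard error 0.23, adjusted p = 0.00016). The combination stood apart from all other groups. At such low levels the value depends on the pseudocount (-2.34 with 0.01 and -0.76 with 1, adjusted p = 0.00013 and 0.00057). AC003002.1, a gene annotated over ZNF547 on the same strand, can share its fragments. ZNF607 averaged 0.557 ± 0.0569 FPKM in 2DG plus phenformin and 1.59 ± 0.237 in 2DG, against 2.02 ± 0.0796 in phenformin and 1.98 ± 0.136 in DMSO, and ZNF566 averaged 0.964 ± 0.0348 FPKM in 2DG plus phenformin and 2.39 ± 0.121 in 2DG, against 2.28 ± 0.209 in phenformin and 2.27 ± 0.162 in DMSO (SD, n = 3 each). Their interactions were -1.39 (adjusted p = 0.00016) and -1.23 (adjusted p = 2.3e-05), or -0.75 and -0.79 with a pseudocount of 1. In ZNF398 the sign of the 2DG effect differed, with an effect of -0.32 in the presence of phenformin and 0.33 in its absence (adjusted p = 7e-05 and 0.00011), and an interaction of -0.65 (adjusted p = 3e-05).

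Of 413 tested ZNF genes, 58 lay below the additive sum (14%, beside 3.59% of all genes) and 1, ZNF460, above it, with a median interaction of -0.20. A majority of 315 had a negative value. The median 2DG effect over the list was -0.39 with phenformin and -0.15 without it. On chromosome 19, which holds large clusters of the family, 35 of 204 ZNF genes lay below (median -0.23), and on the other chromosomes 23 of 209 (median -0.18). Members of this family resemble each other in sequence, so that fragments can be split between them. The GC content of the ZNF genes was low (median 42.7%, against 47.1% over all genes), and the interaction ran with GC content. In the lowest of 5 equal GC bins the median was -0.26 over 115 ZNF genes and -0.09 over 2290 other genes, and in the highest bin it was -0.05 over 50 and 0.10 over 2355. In each of the 5 bins the ZNF median lay below that of the other genes. With the GC and length correction 91 ZNF genes lay below and 8 above, and with quantile normalization 25 lay below and 0 above. The part of base composition in the ZNF result was not tested further.

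**Figure D4:**
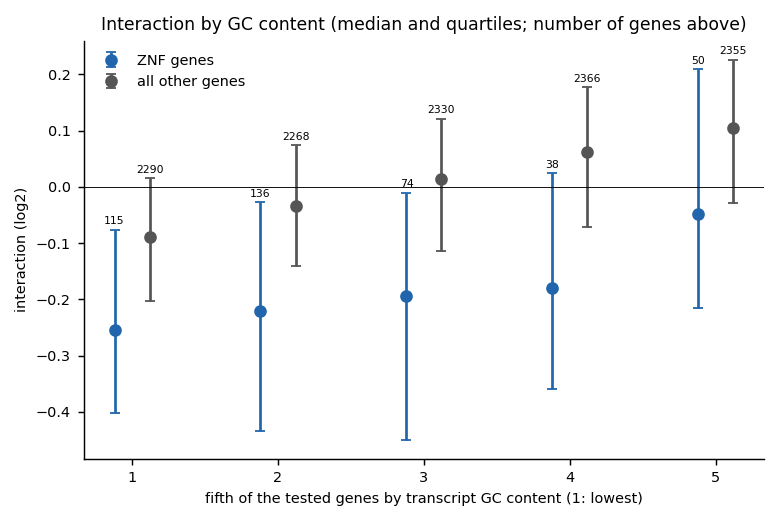
Interaction of 2DG and phenformin (y axis, log2) in 5 equal bins of the tested genes by the GC content of their longest transcript (x axis), for ZNF genes in blue and all other genes in grey, as medians with quartiles and the number of genes at the upper end of each bar. The medians run upward with GC content in both, and that of the ZNF genes is the lower one in each bin, at -0.26 and -0.09 in the first and at -0.05 and 0.10 in the last.

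Some transcripts of the mitochondrial genome, which holds the rRNAs of the organelle and genes of respiratory subunits, lay below the sum. All of its transcripts together took 3.30% ± 0.341 of the mapped fragments in 2DG plus phenformin and 4.52% ± 0.132 in 2DG, against 4.51% ± 0.194 in phenformin and 5.29% ± 0.452 in DMSO (SD, n = 3 each). Of the 15 tested, 5 lay below the additive sum (33.3%, beside 3.59% of all genes) and 0 above it by limma (6 and 0 at an unadjusted p under 0.05, 5 and 0 with voom weights). The 5 were the complex I subunits MT-ND5, MT-ND6 and MT-ND1 and the rRNAs MT-RNR1 and MT-RNR2. MT-ND6, which alone of these is encoded on the light strand, was at 182, 221 and 197 FPKM in 2DG plus phenformin and at 332, 376 and 365 in 2DG, against 726, 670 and 791 in phenformin and 674, 610 and 555 in DMSO (interaction -1.09, standard error 0.136, adjusted p = 0.00022). MT-ND5 averaged 753 ± 54.6 FPKM in 2DG plus phenformin and 1587 ± 49.8 in 2DG, against 1538 ± 87.4 in phenformin and 1909 ± 143 in DMSO (interaction -0.77, adjusted p = 0.00015). For MT-RNR1 and MT-RNR2 the interactions were -0.85 and -0.80 (adjusted p = 0.00069 and 0.00075), with the reservation that rRNAs are only in part retained in a library made from polyadenylated RNA. Among 36 nuclear-encoded subunits of complex I, 1 lay above the sum, NDUFA6 by 0.21 (adjusted p = 0.013, lost with the GC and length correction), and 0 lay below (9 above and 1 below at an unadjusted p under 0.05, 1 and 0 with voom weights). The 1 called subunit is 2.78% of the 36, beside 1.38% of all genes above the sum, and their median was 0.125.

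Several of the genes furthest above the sum moved little in either single treatment. ZFP36L1, which binds AU-rich elements and speeds mRNA decay, was the most precisely measured of them, at 58.7, 59.1 and 59.2 FPKM in 2DG plus phenformin and 20.2, 20.3 and 20.3 in 2DG, against 16.8, 17.4 and 16.8 in phenformin and 16.7, 16.8 and 16.8 in DMSO. All 3 libraries of the combination stood far above the rest, and the interaction was 1.52 (standard error 0.06, adjusted p = 1.1e-09). Its paralogue ZFP36 was lowered by 2DG alone (log2 effect -0.35, adjusted p = 0.013) and raised by 2DG with phenformin (0.92, adjusted p = 8.6e-06). DUSP1, a phosphatase that inactivates MAP kinases, was at 11.97, 11.77 and 11.98 FPKM in 2DG plus phenformin and 3.93, 3.34 and 3.91 in 2DG, against 3.36, 3.69 and 3.44 in phenformin and 3.03, 3.63 and 3.77 in DMSO. Neither agent alone moved it past the test, and the interaction was 1.64 (standard error 0.126, adjusted p = 1.8e-06). ADM, the vasodilator peptide adrenomedullin, was at 87.1, 83.1 and 94.4 FPKM in 2DG plus phenformin and 29.3, 33.3 and 33.2 in 2DG, against 21.2, 23.7 and 24.4 in phenformin and 24.2, 24.1 and 29.9 in DMSO (interaction 1.63, standard error 0.145, adjusted p = 9.1e-06). The kinase gene PIM1 averaged 8.33 ± 0.704 FPKM in 2DG plus phenformin and 4.03 ± 0.0584 in 2DG, against 3.5 ± 0.321 in phenformin and 3.56 ± 0.0736 in DMSO (SD, n = 3 each), an interaction of 1.06 (adjusted p = 2.3e-05).

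Of 13 tested genes of ERK feedback and output, 4 lay above the sum (DUSP10, DUSP1, SPRY2 and SPRY1) and 1, DUSP4, below it, with a list median of 0.22. These are 30.8% and 7.69% of the list, beside 1.38% and 3.59% of all genes. SPRY2, an inhibitor of receptor tyrosine kinase signalling, averaged 13.9 ± 0.257 FPKM in 2DG plus phenformin and 4.91 ± 0.516 in 2DG, against 2.54 ± 0.327 in phenformin and 2.04 ± 0.131 in DMSO (interaction 1.19, standard error 0.16, adjusted p = 0.00042). Its relative SPRY1 was lowered by 2DG alone (log2 effect -0.42, adjusted p = 0.011) and raised by 2DG with phenformin (0.74, adjusted p = 0.00017). DUSP10, a phosphatase of JNK and p38, was the most abundant of the 4, at 103 ± 3.47 FPKM in 2DG plus phenformin and 62.2 ± 1.45 in 2DG, against 34.4 ± 1.15 in phenformin and 34.5 ± 1.3 in DMSO (interaction 0.74, adjusted p = 1.5e-06). The combined level of DUSP4 did not reach the additive sum, with 10.3 FPKM in 2DG plus phenformin and 9.19 in 2DG, against 7.33 in phenformin and 4.98 in DMSO (interaction -0.38, adjusted p = 0.0086).

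The immediate early genes, transcription factors switched on within minutes of a stimulus, split. Of 18 tested, 8 lay above the additive sum (KLF6, ZFP36, MYC, EGR1, IER3, JUN, MAFF and KLF10) and 4 below it (FOSL2, IER5, IER2 and KLF2), and the list median was 0.18. These are 44.4% and 22.2% of the list, beside 1.38% and 3.59% of all genes. KLF6 was at 49.1, 49.3 and 49.1 FPKM in 2DG plus phenformin and 20.6, 19.8 and 18.8 in 2DG, against 11.96, 12.26 and 11.65 in phenformin and 10.3, 9.91 and 10.4 in DMSO. Here both agents raised the gene singly, and the combination exceeded their sum, 23.2 FPKM, in all 3 libraries (interaction 1.08, standard error 0.0502, adjusted p = 6.7e-09). MYC, a transcription factor of growth and glycolytic genes, was at 29.95, 28.86 and 32.34 FPKM in 2DG plus phenformin and 16.4, 17.8 and 18.4 in 2DG, against 8.81, 9.02 and 9.79 in phenformin and 9.28, 10.1 and 11.8 in DMSO (interaction 0.96, standard error 0.136, adjusted p = 0.00063). EGR1, a zinc finger factor of the growth factor response, averaged 2.01 FPKM in 2DG plus phenformin and 0.515 in 2DG, against 0.571 in phenformin and 0.445 in DMSO (interaction 1.51, standard error 0.278, adjusted p = 0.0047). JUN, the partner of FOS in AP-1, averaged 24.9 FPKM in 2DG plus phenformin and 13.8 in 2DG, against 9.73 in phenformin and 8.56 in DMSO (interaction 0.66, adjusted p = 0.0088). On the other side, FOSL2, another subunit of AP-1, averaged 18.3 ± 0.625 FPKM in 2DG plus phenformin and 23.7 ± 0.974 in 2DG, against 14.8 ± 0.106 in phenformin and 13.8 ± 0.388 in DMSO, so that adding phenformin lowered its level (log2 effect of phenformin with 2DG -0.37, adjusted p = 0.00019; interaction -0.47, adjusted p = 0.0013).

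The alpha-arrestins include TXNIP and ARRDC4, which limit glucose uptake and are induced by the sugar-sensing factors MondoA and MLX. TXNIP (ENSG00000265972, GRCh38 chr1:145992435-145996600, minus strand) was at 216, 216 and 199.7 FPKM in 2DG plus phenformin and at 235, 225 and 229 in 2DG, against 41.6, 42.2 and 41.6 in phenformin and 109, 108 and 104 in DMSO. Phenformin alone thus lowered TXNIP (log2 effect -1.36, adjusted p = 2e-10), while its effect in the presence of 2DG, -0.12, did not pass the test (adjusted p = 0.11). An additive result would have been 89.4 FPKM, and the interaction was 1.24 (standard error 0.0644, adjusted p = 2.7e-08). ARRDC4 was at 22.1, 22.4 and 21.0 FPKM in 2DG plus phenformin and 29.3, 28.3 and 28.5 in 2DG, against 5.398, 5.391 and 5.011 in phenformin and 9.83, 9.19 and 8.59 in DMSO. Its interaction of 0.40 (standard error 0.0949, adjusted p = 0.023) rests on the log scale: on the FPKM scale the combination stayed under the sum of the differences (an interaction of -2.90 FPKM), and the call was lost in 7 of the 12 fits with 1 library left out and with quantile normalization.

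ARRDC3, a relative that acts on receptor uptake, was at 42.9, 45.8 and 40.6 FPKM in 2DG plus phenformin and 25.2, 23.1 and 23.6 in 2DG, against 18.6, 16.7 and 17.2 in phenformin and 20.36, 20.64 and 18.01 in DMSO (interaction 1.01, standard error 0.0988, adjusted p = 2.3e-05). Of the 7 tested genes of this list these 3 lay above the sum (42.9%, beside 1.38% of all genes) and 0 below it by limma (3 and 0 also at an unadjusted p under 0.05 and with voom weights), and the median was 0.36. The list holds genes that the study had picked out on these libraries. In the list of glycolysis and glucose transport, 1 of 26 tested genes lay above the sum (3.85%, beside 1.38% of all genes) and 0 below (1 above and 2 below at an unadjusted p under 0.05, 1 and 0 with voom weights, 4 and 2 with the GC and length correction). The 1 was SLC2A3, the high-affinity glucose transporter GLUT3, at 14.2 ± 0.520 FPKM in 2DG plus phenformin and 7.82 ± 0.227 in 2DG, against 5.96 ± 0.219 in phenformin and 5.23 ± 0.111 in DMSO (interaction 0.67, standard error 0.0598, adjusted p = 9.5e-06).

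Some genes above the sum, 17 of the 167, were lowered at least 1.5-fold by 2DG alone, beside 519 of all 12108 genes. CLK1, a kinase of splicing factors, was at 9.38, 10.3 and 9.09 FPKM in 2DG plus phenformin and 4.87, 3.65 and 3.82 in 2DG, against 6.74, 7.10 and 6.99 in phenformin and 7.60, 7.94 and 7.24 in DMSO (interaction 1.34, standard error 0.132, adjusted p = 2.4e-05). BCYRN1, a short noncoding RNA of Alu origin whose copies elsewhere in the genome make its counts uncertain, averaged 79.4 ± 15.6 FPKM in 2DG plus phenformin and 44.6 ± 2.11 in 2DG, against 53.4 ± 1.35 in phenformin and 81.3 ± 10.2 in DMSO (interaction 1.41, adjusted p = 0.00036). With phenformin present, 2DG raised both genes (0.46 for CLK1 and 0.55 for BCYRN1, adjusted p = 0.00098 and 0.0027). CTGF, a matricellular growth factor and target of YAP, was the 1 gene of 16 YAP and SRF targets above the sum, at 37.7, 38.4 and 35.2 FPKM in 2DG plus phenformin and 14.4, 14.4 and 13.8 in 2DG, against 19.5, 19.4 and 21.2 in phenformin and 14.91, 14.99 and 15.05 in DMSO (interaction 0.96, standard error 0.0562, adjusted p = 1.1e-07). Of that list 6.25% thus lay above, beside 1.38% of all genes, and 0 lay below (3 above and 1 below at an unadjusted p under 0.05, 1 and 0 with voom weights).

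PPP1R10, the gene of the phosphatase regulator PNUTS that acts in transcription termination, fell less than additively under both agents, with 3.93 ± 0.285 FPKM in 2DG plus phenformin and 3.07 ± 0.104 in 2DG, against 12.8 ± 0.361 in phenformin and 14.5 ± 0.708 in DMSO (interaction 0.52, adjusted p = 0.00096). Of the 24 tested termination factors it lay above the sum with WDR33, and CPSF7 and CLP1 lay below, with interactions of 0.25 for WDR33, -0.31 for CPSF7 and -0.32 for CLP1. These are 8.33% in each direction. Here and in the lists that follow, the shares over all genes were 1.38% above and 3.59% below. The calls of WDR33 and CLP1 were lost in most fits with 1 library left out. INSIG1, which holds sterol synthesis in check, lay above (0.47, adjusted p = 0.00039), and STARD4 and HMGCS1, a sterol carrier and a synthetic enzyme, lay below (-0.58 and -0.43, adjusted p = 0.0069 and 0.032), among 24 genes of cholesterol and fatty acid synthesis (4.17% above and 8.33% below), and the call of HMGCS1 was lost in 11 of the 12 fits with 1 library left out. In polyamine metabolism the degrading enzyme SAT1 lay above (0.55, adjusted p = 0.016) and the synthetic enzyme AMD1 below (-0.70, adjusted p = 0.00039), of 9 tested (11.1% each). AMD1 averaged 12.8 FPKM in 2DG plus phenformin and 18.9 in 2DG, against 28.5 in phenformin and 25.7 in DMSO. Of 15 tested p53 targets and growth arrest genes PLK2 and GDF15 lay above and ZMAT3 and MDM2 below (13.3% in each direction). MDM2, the ubiquitin ligase of p53, averaged 3.59 FPKM in 2DG plus phenformin and 4.91 in 2DG, against 4.76 in phenformin and 4.6 in DMSO (interaction -0.50, adjusted p = 0.024). Of 12 inflammatory genes CXCL8 (1.72, adjusted p = 0.035) and PTGS2 (1.01, adjusted p = 0.044) lay above (16.7%), both calls being lost in most fits with 1 library left out and the values being 1.02 and 0.35 with a pseudocount of 1, and the list median was 0.41. With a pseudocount of 0.01 neither passed limma's test (adjusted p = 0.065 and 0.18). PTGS2 reached 0.5 FPKM only in the 3 libraries of 2DG plus phenformin. It entered the test through the group where it was high, so its call adds no support. Of 18 host genes of small nucleolar RNAs 8 were in the table and tested, and ZFAS1, EPB41L4A-AS1 and SNHG12 lay above (37.5% of the 8), by 0.39, 0.55 and 0.61 (adjusted p = 0.0012, 0.008 and 0.0083), the last of which was lost with the GC and length correction.

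Several lists held no gene past the test. In the 39 tested genes of N-glycan precursor synthesis and transfer, the route 2DG enters, 0 genes lay above or below (limma, with 1 above and 3 below at an unadjusted p under 0.05, and 0 with voom weights), and the median was -0.01. With the GC and length correction 2 of them lay above and 2 below, and 2 lay below with the 12 libraries alone, with a replicate block or without the 2 libraries that stood apart. Of 20 heat shock proteins of the cytosol and mitochondria 0 passed (1 above at an unadjusted p under 0.05, 0 with voom weights, 1 above with the GC and length correction). Of 15 housekeeping genes 0 passed as well (1 above at an unadjusted p under 0.05, 0 with voom weights, 1 above with the GC and length correction or without the 2 libraries), with values from -0.085 to 0.207. FTH1, which stores iron, was the 1 of 16 NRF2 targets above the sum (6.25%, beside 1.38% of all genes), by 0.19 (adjusted p = 0.0069), and the call was lost with the GC and length correction. Of the 82 cytosolic ribosomal protein genes 81 had a positive value, beside 6138 of all 12108 genes and 11 of the 15 housekeeping genes, with a median of 0.155. Only RPS25, RPL38 and RPS20 passed (3.66%, beside 1.38% of all genes), by 0.14 to 0.40, and their calls were lost under 5 or more of the alternatives each. Processed pseudogenes can take fragments of these genes.

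**Figure D5:**
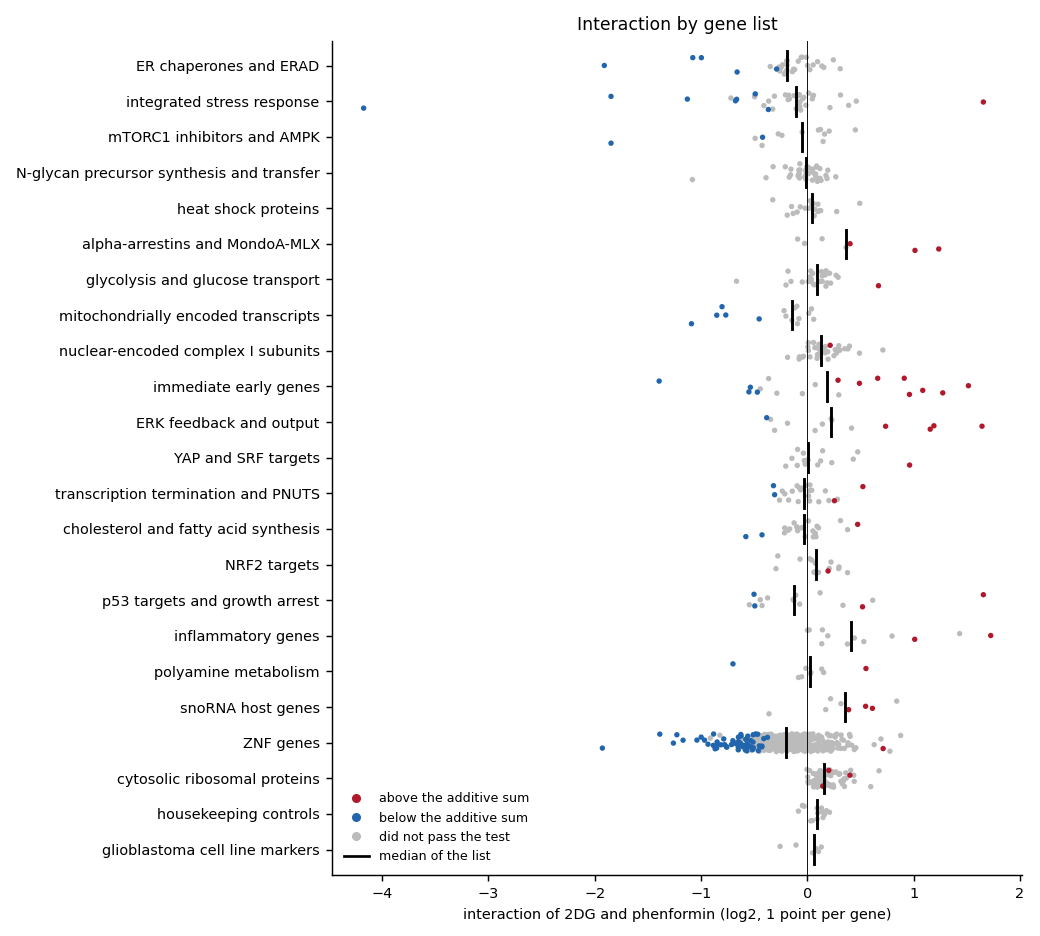
Interaction of 2DG and phenformin (x axis, log2) of every tested gene in 23 gene lists (rows), with genes above the additive sum in red, below it in blue and the others in grey, and the list median as a black bar. The medians lie within -0.20 to 0.41, and single members such as CHAC1 at -4.17 and GDF15 at 1.65 lie far from them.

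The interaction of 2DG with phenformin was set against that of GH with phenformin by the contrast of 2DG plus phenformin minus 2DG with GH plus phenformin minus GH, in which the DMSO and phenformin libraries that both interactions share cancel. In 83 genes (0.685%) the 2DG interaction was the higher and in 113 (0.933%) the lower. Without replicate A of GH plus phenformin, which stood apart in GC-rich genes, these numbers were 495 and 355, while 49 to 54 genes were higher without replicate A or B of GH, B or C of 2DG, or B of either combination, and with the correction for GC and length 356 higher and 410 lower. The genes with the smallest p were HERPUD1, TXNIP and DDIT3. HERPUD1 was at 9.95, 9.32 and 9.51 FPKM in 2DG plus phenformin and 38.1, 36.0 and 36.2 in GH plus phenformin, against 42.1, 41.1 and 38.8 in 2DG and 38.3, 37.6 and 35.9 in GH, and the interactions differed by -2.05 (adjusted p = 2.2e-10). Phenformin thus left HERPUD1 at its raised level with GH and not with 2DG. DDIT3 was at 48.1, 43.0 and 46.6 FPKM in 2DG plus phenformin and 59.8, 67.6 and 69.7 in GH plus phenformin, against 97.6, 102 and 97.9 in 2DG and 42.5, 45.0 and 43.9 in GH, a difference of -1.69 (adjusted p = 2.7e-07).

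TXNIP was at 216, 216 and 199.7 FPKM in 2DG plus phenformin and 3.13, 3.13 and 2.83 in GH plus phenformin, against 235, 225 and 229 in 2DG and 1.21, 1.17 and 1.29 in GH. It lay above the sum with both partners, by 1.24 with 2DG and 2.60 with GH, at levels that differed widely, and the difference was -1.36 (adjusted p = 1.3e-08). HSPA5, CHAC1 and XBP1 also differed, by -1.15, -5.01 and -0.58 (adjusted p = 3.2e-07, 2e-06 and 1.3e-05). For DUSP1 and SPRY2, whose interactions with GH were 2.11 and 1.22, the difference of -0.47 and -0.03 did not pass (adjusted p = 0.09 and 0.93), which does not show that they were equal. ZNF547 had interactions of -1.93 with 2DG and -1.46 with GH, and their difference of -0.47 did not pass either (adjusted p = 0.36).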

How the data were processed

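Stranded mRNA libraries of T98G cells were sequenced. Per the methods, the authors used CLC Genomics Workbench to map them, by strand, to GRCh38 with Ensembl gene models. The deposited FPKM table, in which fragments are scaled by exon length and by depth, holds 55128 genes in 18 libraries. Every column was matched to a sample by its label. Whole fragments could be recovered from the FPKM steps for 25155 of 25158 genes above 0 (99.988% at a tolerance of 0.001). Replicate pairs differed by 1.33 to 36.8 times the counting variance, so that no library was a copy of another, and intervals from counting error alone would be too narrow.

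The 12108 genes that reached 0.5 FPKM in 3 or more libraries were tested on log2(FPKM + 0.1) with limma version 3.58.1 in R version 4.3.3, with an intensity trend, 1 coefficient for each of the 6 groups, 12 residual degrees of freedom and two-sided tests adjusted by Benjamini and Hochberg. A fold change on this scale understates that of genes near 0.1 FPKM. The contrast and the model were tested on simulated data. GC content and length came from GENCODE for 12022 genes (99.29%). The replicates are labelled as biological, and nothing says whether they came from separate days. The letters A, B and C were not taken to pair samples in the reported fit. Deviations of same-lettered libraries from their group means correlated at -0.264 to 0.48. Of these pairs 10 of 18 exceeded 0.1, a larger share than the 8 of 36 pairs with different letters. These values give no ground for treating the letters as unpaired. With a replicate block by letter 251 genes lay above the additive sum and 646 below it.

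Named are CHAC1, HERPUD1, SESN2 and ZNF547, the 10 genes with the largest interaction in each direction at the thresholds of the study, in every list the (up to 4) called members of smallest adjusted p, TXNIP, ARRDC4, DDIT3, HSPA5, MYC and KLF6, and the 3 genes with the smallest adjusted p between the 2DG and GH interactions. Other members of counts are named from their lists, after their values were seen. 1 gene past the thresholds of the study is not reported here. Members and lists were chosen with earlier results of these data known. Alternatives were other scalings, pseudocounts and filters, the 12 libraries alone, a replicate block, a GC and length correction, voom weights on the recovered fragments (chosen after seeing the data) and leaving out libraries. Figures were drawn with Python version 3.11.15 and matplotlib version 3.10.9.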

Additional observations from a re-analysis of the deposited data

Results flagged for a closer look

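The effect of 2DG differed with and without phenformin in 167 genes that lay above the additive sum and in 435 below it (limma, adjusted p under 0.05). The 2DG interaction was higher than the GH interaction in 83 genes and lower in 113, by the test of the difference itself. Among these, HERPUD1 differed by -2.05 on the log2 scale, TXNIP by -1.36 and DDIT3 by -1.69. Groups of 3 libraries are too small to call single samples outliers by a test. The libraries said to stand apart were described by their GC slopes only.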

How the results depend on the processing

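The genes above the additive sum numbered 251 and the genes below the additive sum 646 with a replicate block, and 717 and 974 with the block and the GC and length correction together. The correction alone gave 639 and 906, the removal of GH plus phenformin A and DMSO C 256 and 646, and quantile normalization 131 and 243. Leaving out 1 library at a time gave 102 (without 2DG plus phenformin A) to 144 above and 283 (without 2DG A) to 385 below. At the study's thresholds these were 9 (without DMSO B, phenformin B or 2DG plus phenformin A) to 14 above and 12 to 15 below, and the other alternatives gave 10 to 15 and 11 to 18. For 2DG against GH the block gave 192 and 194 genes, the correction 356 and 410, and single left-out libraries 49 to 495 higher and 78 to 355 lower, the highest being without GH plus phenformin A. Of the 61 named genes, 45 kept their call under each of 26 alternatives, and 16 lost it in 1 or more. 1 changed sign, ARRDC4 on the linear FPKM scale (-2.898 FPKM). On that scale 166 of the 167 genes above and all 435 below kept their sign. Of 1200 counts of list members, 1041 stayed within 1.5 times the reported count. A reported count of 0 that stayed at 0 was included in the 1041, so lists without called members add to this number. The median of all genes, 0.003 as reported, lay between -0.024 and 0.011 under the alternatives. The 2 count models planned on recovered fragments were not run, since the deposited values are FPKM. Low genes such as CHAC1 and ZNF547 rest on few fragments in the combination, and causes of these shifts were not tested.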

Other observations

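Other genes at the thresholds of the study, named after their values were seen, had the same forms as those above. EIF5, a factor of translation initiation, averaged 15.7 FPKM in 2DG plus phenformin and 31.6 in 2DG, against 47.8 in phenformin and 44.2 in DMSO (interaction -1.12, standard error 0.0856, adjusted p = 1.8e-06, limma). HEXIM1, an inhibitor of the elongation factor P-TEFb, averaged 3.23 FPKM in 2DG plus phenformin and 7.18 in 2DG, against 6.66 in phenformin and 7.22 in DMSO (interaction -1.02, adjusted p = 7.2e-06). Both were lowest under both agents, by more than the single effects add up to. BHLHE40, a repressor of clock genes induced by hypoxia, averaged 48.7 FPKM in 2DG plus phenformin and 26.0 in 2DG, against 12.4 in phenformin and 13.8 in DMSO (interaction 1.05, adjusted p = 6.2e-05).

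Among further genes past the test, SNAI2, a transcription factor of mesenchymal cells, averaged 76.1 FPKM in 2DG plus phenformin and 42.1 in 2DG, against 25.03 in phenformin and 23.58 in DMSO (interaction 0.77, adjusted p = 9.1e-06). SOX9, a transcription factor of glial progenitors, averaged 36.4 FPKM in 2DG plus phenformin and 20.8 in 2DG, against 17.4 in phenformin and 16.5 in DMSO (interaction 0.72, adjusted p = 0.00014). NEAT1, the RNA scaffold of paraspeckles, averaged 22.9 FPKM in 2DG plus phenformin and 14.96 in 2DG, against 7.96 in phenformin and 11.9 in DMSO (interaction 1.19, adjusted p = 0.00063). RHOB, a stress-induced small GTPase, lay on the other side, at 13.1 FPKM in 2DG plus phenformin and 23.0 in 2DG, against 10.4 in phenformin and 9.76 in DMSO (interaction -0.90, adjusted p = 0.00012).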
